A study of Drosophila melanogaster with 28 samples.

Results

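Pol II occupancy was read at 10 genes of the BMP (bone morphogenetic protein) pathway that patterns the dorsal axis of the Drosophila embryo. The genes were chosen by name and not by their values, although earlier results of these data were known at the time. They are the ligand genes dpp and scw, the extracellular modulator genes sog, tsg, tld and cv-2, the type I receptor genes tkv and sax, and the Smad genes Mad and Med. All 10 were among the 17588 genes of the table, and all 10 passed the filter on low counts that left 16513 genes tested.

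The series holds 28 samples in 14 groups, and the 4 stage 5 ChIP-seq libraries of the Pol II subunit Rpb3 were analysed, with 2 libraries per group. Ctrl embryos carry the genotype label t180 and DomKD embryos the genotype label t216, and the labels do not spell out either code. By the study's methods, a TRiP line (a control line, or an shRNA against Domino) was combined with the germline driver mat-alpha-Gal4; the methods do not say what the control line carries. The RNAi acts in the maternal germline and lowers what the mother supplies to the egg, and the embryo's own dom gene is intact. Domino is a chromatin remodeller that loads H2A.Z, a variant of histone H2A, and the comparison asks how far Pol II occupancy at zygotic genome activation (ZGA) depends on it. Chromatin came from whole fixed embryos, so that fewer nuclei with Pol II on a gene and less Pol II per nucleus cannot be told apart.

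In the early embryo a gradient of BMP activity assigns fates along the dorsal side. Dpp and Screw are the BMP ligands, Short gastrulation and Twisted gastrulation bind them and carry them dorsally, and the protease Tolloid cleaves Short gastrulation and frees them. Thickveins and Saxophone are type I receptors that phosphorylate Mad, which then enters the nucleus with Medea. The genes of ligands and extracellular modulators are known for zygotic transcription in the blastoderm, whereas receptors and Smads are also supplied by the mother.

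The upstream sequences of 8 annotated starts are shown because most of the Pol II reads of dpp, tkv and sog lay downstream of particular starts, and because the starts differ in short motifs. Each line gives the 150 bases before an annotated start, 5′ to 3′ on the strand of the gene, from the Release 6 genome (dm6). Capitals mark matches on either strand to any of 6 motif sets, and overlapping matches run together; the capitals that open the tld-RA line belong to an Inr match that begins 1 base earlier. TAGteam, the motif of the pioneer factor Zelda, was searched as CAGGTAG and as the variants CAGGTAA, further CAGGCAG and lastly TAGGTAG. The initiator motif Inr was searched as TCAGTT, likewise TCAGTC, further TCATTC and lastly TCATTT. The other sets were GAGAG, the motif of GAGA factor, the TATA box as TATAAA, DRE as TATCGATA and the core of Ohler1 as GGTCACAC. A match is a description of the letters, not a bound site. The windows are chr2L:2451079-2451228 (plus strand) for dpp-RC, chr2L:2454587-2454736 (plus) for dpp-RE, chr2L:19700969-19701118 (minus) for scw-RA, chrX:11988949-11989098 (minus) for tsg-RA, chr3R:24749581-24749730 (plus) for tld-RA, chrX:15626541-15626690 (minus) for sog-RA, chr2L:5237363-5237512 (minus) for tkv-RD and chr2L:5271385-5271534 (minus) for tkv-RA.
dpp-RC: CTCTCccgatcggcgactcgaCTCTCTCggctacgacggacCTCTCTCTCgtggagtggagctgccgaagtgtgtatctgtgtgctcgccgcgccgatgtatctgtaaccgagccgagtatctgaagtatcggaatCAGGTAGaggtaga
dpp-RE: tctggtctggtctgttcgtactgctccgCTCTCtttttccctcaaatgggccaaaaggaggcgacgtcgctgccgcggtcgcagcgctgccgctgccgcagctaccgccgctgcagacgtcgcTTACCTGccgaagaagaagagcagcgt
scw-RA: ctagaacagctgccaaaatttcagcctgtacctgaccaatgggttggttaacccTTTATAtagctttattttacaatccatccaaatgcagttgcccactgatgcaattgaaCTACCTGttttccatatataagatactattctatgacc
tsg-RA: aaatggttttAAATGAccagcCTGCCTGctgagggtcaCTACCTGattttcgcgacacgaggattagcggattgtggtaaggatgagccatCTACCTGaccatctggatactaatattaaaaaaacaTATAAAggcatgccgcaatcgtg
tld-RA: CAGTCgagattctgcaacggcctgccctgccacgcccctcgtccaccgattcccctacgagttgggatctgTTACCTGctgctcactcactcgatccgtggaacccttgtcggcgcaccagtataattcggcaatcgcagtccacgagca
sog-RA: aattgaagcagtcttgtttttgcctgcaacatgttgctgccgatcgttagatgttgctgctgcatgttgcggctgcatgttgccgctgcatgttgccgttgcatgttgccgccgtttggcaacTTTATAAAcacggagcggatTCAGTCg
tkv-RD: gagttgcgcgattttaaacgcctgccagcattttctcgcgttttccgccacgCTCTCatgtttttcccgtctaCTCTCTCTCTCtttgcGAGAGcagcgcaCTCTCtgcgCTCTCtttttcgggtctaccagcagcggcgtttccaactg
tkv-RA: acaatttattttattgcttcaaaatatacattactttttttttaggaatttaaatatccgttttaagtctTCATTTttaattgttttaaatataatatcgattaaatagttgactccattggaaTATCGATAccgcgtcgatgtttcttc

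Motifs were counted from 250 bases before to 50 bases after each start, and the promoters of 16494 tested genes, with 1 start per gene, were searched in the same way. For the 10 genes each distinct annotated start was searched, which gives genes with several starts more chances of a match. A TAGteam match lay in 8.14% of all promoters and in the promoters of 4 of the 10 genes, namely dpp, scw, tsg and tld, and the same 4 had a match at the start of the transcript used in the test. At dpp all 4 annotated starts held at least 1 match, which began 14 bases before the start of dpp-RC and 27 bases before that of dpp-RE. At tsg 3 matches began 129, 112 and 59 bases before the start, at scw 1 match began 38 bases before it, and at tld 1 match began 79 bases before it. No TAGteam letters were found in the windows of sog, cv-2, tkv, sax, Mad and Med. The sog-RA start had a TATAAA match 25 bases before it, and 44.1% of all promoters held this motif somewhere in the window. The tkv-RD start had 13 matches to GAGAG, some of them overlapping. This motif was found in 29.6% of all promoters, and 8 of the tkv-RD matches lie in the bases shown. The sog-RB start had 16 GAGAG matches, and the part of sog that follows it was near background. DRE, the motif of DREF and present in 8.02% of promoters, was found at sax-RA, sax-RB, tkv-RA and tkv-RB. The Ohler1 core, present in 6.65% of promoters and known as a motif of M1BP, was found at sax-RA, sax-RB and Mad-RA. The windows of sax-RA and sax-RB overlap, and for both motifs the matches at these starts are the same site. Sequences of sax and cv-2 are not shown.

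With 1 transcript per gene, the read counts summed to between 8326382 and 12022604 per library. The libraries differed in enrichment. The background density, the most frequent read density over genes with spans above 2000 nt, came to 4.65 and 4.23 CPM per kb for the Ctrl libraries and to 4.41 and 7.04 for DomKD 1 and DomKD 2 (CPM are reads of a gene scaled to a common library total). Reads above this background made up 53.2%, 57.4%, 55.6% and 29.1% of the total in the same order, so that DomKD replicate 2 stood apart. At dom itself the CPM values were 617 and 664 in Ctrl and 599 and 371 in DomKD, with a log2 fold change of -0.40 (SE 0.26) and an edgeR adjusted p of 0.267. All 8 blastoderm markers were at 2 times background or more (4.86 to 110 times), against 2 of 8 markers of later tissues (elav and Obp99a, with a range over the list of 0.924 to 6.08) and 0 of 8 of ovarian follicle cells (0.958 to 1.88). Summed CPM in Ctrl 1, Ctrl 2, DomKD 1 and DomKD 2 was 4328, 4360, 7121 and 3979 for the blastoderm list, 628, 650, 619 and 636 for the later tissue list and 42.1, 37.9, 46.7 and 58.8 for the follicle cell list. The part of these differences in the results on the 10 genes was not tested.

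Read density over the whole gene span placed the 10 genes in an order. It is given per library as a multiple of that library's background, per length of the whole annotated span, so that the order depends on the span taken: dpp and tkv include long 5′ parts near background, and the parts of their spans are described further on. The antagonist gene sog was highest, with 15.2 and 16.8 times background in Ctrl and 21.9 and 9.22 in DomKD. Next came tsg (13.1, 15.2, 15.6 and 8.30 in the same order) and tld (11.3, 10.8, 15.4 and 7.07), and the order sog, tsg, tld was the same in all 4 libraries, although their ranges over libraries overlapped. The ligand gene scw had 6.05, 6.68, 6.97 and 4.76 times background, cv-2 had 4.94, 5.53, 7.77 and 3.94, and dpp had 4.16, 4.63, 6.11 and 3.17. Within each library dpp was below both scw and cv-2, and scw was above cv-2 except in DomKD replicate 1. The receptor gene tkv had 3.33, 3.68, 4.89 and 2.49, Med had 3.53, 3.85, 2.70 and 1.81, sax had 2.88, 3.09, 1.62 and 1.12, and Mad had 2.15, 2.35, 1.54 and 1.16, with Med above tkv in Ctrl and below it in DomKD and sax above Mad except in DomKD replicate 2. Occupied genes are those with a mean of 2 times background or more over the libraries, a level reached by 9 of the 10, with sax just inside at 2.04 and Mad just outside at 1.71.

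**Figure D1:**
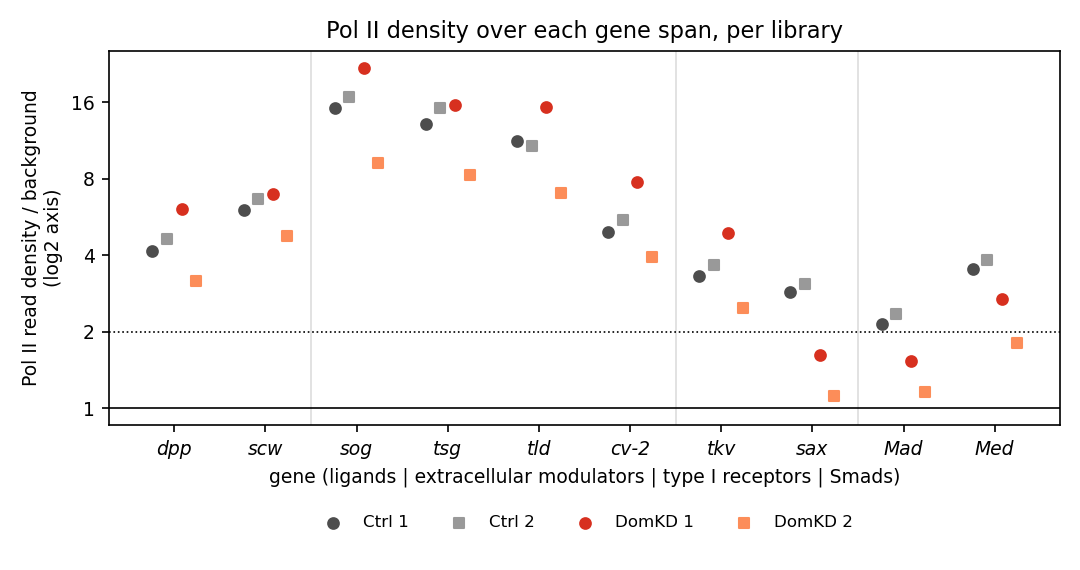
Read density over each gene span divided by the background density of the library, on a log2 axis, with 1 point per library and genes grouped by role; the dotted line marks 2 times background. The modulator genes sog, tsg and tld lie highest at 7.07 to 21.9 times background, and sax and Mad in DomKD lie at 1.12 to 1.62 times.

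Between Ctrl and DomKD, only sax passed the test. In the edgeR likelihood ratio test with TMM (trimmed mean of M values) scaling over all tested genes and Benjamini-Hochberg adjustment at 0.05, 1 of the 10 genes was lower in DomKD and 0 were higher. Over all 16513 genes 12.7% were called lower and 2.46% higher, so that 1 lower call among 10 is near the background. At an unadjusted p under 0.05 the count was also 1, against 5122 of all 16513 genes. The edgeR quasi-likelihood test (10.4% of all genes lower and 1.28% higher), DESeq2 (6.7% and 0.297%) and the fit with a replicate block (9.95% and 1.3%) each called 1 gene, lower. By position of the libraries, 3 genes (sax, Mad and Med) were lower in both DomKD libraries than in both Ctrl libraries, 4 (dpp, scw, cv-2 and tkv) were higher in both, and 3 (sog, tsg and tld) overlapped. The corresponding shares of all genes were 31.8% lower and 30.8% higher, and within the 5959 occupied genes they were 62.1% lower and 7.64% higher. Of the occupied genes 30.6% were called lower and 0.94% higher. The median log2 fold change of the 10 genes was 0.24, against 0.07 over all tested genes and -0.40 over occupied genes.

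The ligand genes had somewhat more Pol II reads, background included, in both DomKD libraries, without passing the test. The gene dpp (FBgn0000490; dm6 2L, 2428372 to 2459823, plus strand) encodes the main BMP ligand of the dorsal side. It had 596 and 611 CPM in Ctrl and 948 and 644 CPM in DomKD. The DomKD libraries did not overlap with Ctrl, but DomKD replicate 2 lay close above it. With background taken off, dpp had 14.7 and 15.3 CPM per kb in Ctrl and 22.6 and 15.2 in DomKD. On that scale DomKD replicate 2 lay between the Ctrl libraries. The log2 fold change was 0.40 (SE 0.25, adjusted p = 0.258 in edgeR). The gene scw (FBgn0005590; 2L, 19699379 to 19700968, minus strand) encodes the second ligand, which works together with Dpp in the blastoderm. Its CPM values were 43.8 and 44.6 in Ctrl and 54.6 and 48.9 in DomKD. Both DomKD values lay above both Ctrl values, with a fold change of 0.23 on the log2 scale (SE 0.20, adjusted p = 0.432) that turned to -0.02 when TMM factors were taken from early zygotic genes.

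At the extracellular modulator genes no difference passed the test, and at sog and tsg the DomKD libraries lay on different sides of Ctrl. The gene sog (FBgn0003463; X, 15603283 to 15626540, minus strand) encodes the Chordin-like protein of the lateral ectoderm and had the most reads of the 10 genes. Its CPM values were 1615 and 1645 in Ctrl and 2512 and 1387 in DomKD. The DomKD libraries enclosed the Ctrl libraries and the groups overlapped. The log2 fold change of 0.26 (SE 0.28, adjusted p = 0.511) was -0.05 with early zygotic scaling and -0.24 without DomKD replicate 1.

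The gene tsg (FBgn0003865; X, 11988062 to 11988948, minus strand), whose product joins Sog in binding BMPs, had 52.9 and 56.6 CPM in Ctrl and 68.3 and 47.6 CPM in DomKD. Again the DomKD values enclosed the Ctrl values. The log2 fold change was 0.08 (SE 0.22, adjusted p = 0.809), and -0.20 both with early zygotic scaling and without DomKD replicate 1. The gene tld (FBgn0003719; 3R, 24749731 to 24753510, plus strand), which encodes the protease that cuts Sog, had 195 and 172 CPM in Ctrl and 286 and 173 CPM in DomKD. DomKD replicate 2 fell between the Ctrl libraries. The log2 fold change was 0.32 (SE 0.25, adjusted p = 0.354), and -0.09 without DomKD replicate 1.

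The gene cv-2 (FBgn0000395; 2R, 21355015 to 21379464, minus strand) encodes Crossveinless 2, a BMP-binding protein best known from the crossveins of the wing. It had 550 and 568 CPM in Ctrl and 937 and 622 CPM in DomKD. Both DomKD libraries lay above both Ctrl libraries. Its log2 fold change of 0.48 (SE 0.25, adjusted p = 0.176) was the highest of the 10 genes in this fit, and it did not pass the threshold.

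The receptor genes lay on opposite sides of Ctrl in CPM. The gene tkv (FBgn0003716; 2L, 5219000 to 5271384, minus strand) encodes the type I receptor that binds Dpp. It had 794 and 809 CPM in Ctrl and 1264 and 844 CPM in DomKD. The DomKD libraries were above Ctrl without overlap, and the log2 fold change was 0.40 (SE 0.25, adjusted p = 0.269). With background taken off, tkv had 10.8 and 11.3 CPM per kb in Ctrl and 17.2 and 10.5 in DomKD. On that scale DomKD replicate 2 lay below both Ctrl libraries. The gene sax (FBgn0003317; 2R, 7806484 to 7810067, plus strand) encodes the type I receptor that mediates Screw signals in the embryo. Its CPM values were 46.9 and 46.5 in Ctrl and 28.6 and 25.8 in DomKD. Both DomKD libraries lay well below Ctrl, and the replicates of each group were close. The fall of 0.78 on the log2 scale (SE 0.20) had an adjusted p of 0.00238.

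The call on sax held in every fit over all genes that used the 4 libraries, with adjusted p values between 3.72e-04 and 0.0181 and log2 fold changes between -1.03 and -0.76. It was lost when either Ctrl library was left out, with an adjusted p of 0.216 without Ctrl replicate 1 and 0.275 without Ctrl replicate 2, while the log2 fold change stayed at -0.78 and -0.79. The counts behind the call were 576 and 390 reads in Ctrl and 266 and 260 reads in DomKD.

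The Smad genes were lower in both DomKD libraries and did not pass the test. The gene Mad (FBgn0011648; 2L, 3146452 to 3159643, minus strand) encodes the Smad that the BMP receptors phosphorylate. It had 129 and 130 CPM in Ctrl and 100 and 98.7 CPM in DomKD. The groups did not overlap, and the log2 fold change was -0.38 (SE 0.21, adjusted p = 0.203). The gene Med (FBgn0288966; 3R, 31611046 to 31615375, plus strand) encodes the common partner Smad. It had 69.6 and 70.1 CPM in Ctrl and 57.7 and 50.7 CPM in DomKD. Both DomKD values lay below Ctrl, with a fold change of -0.37 on the log2 scale (SE 0.21, adjusted p = 0.211) that came to 0.00 when occupied genes were scaled on their own.

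**Figure D2:**
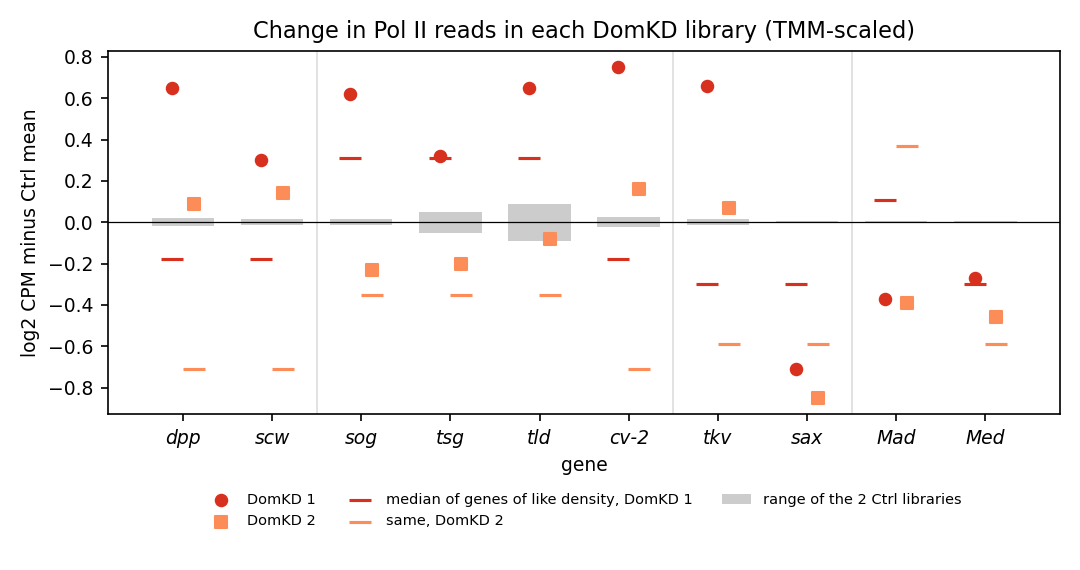
Log2 difference of TMM-scaled CPM between each DomKD library and the Ctrl mean, by gene; grey boxes span the 2 Ctrl libraries and dashes give the median of the genes in the same density class. DomKD replicate 1 lies above DomKD replicate 2 at each of the 10 genes, and sax, Mad and Med are below 0 in both under this scaling; with early zygotic scaling scw, sog and tsg also have fold changes below 0, and with occupied genes scaled on their own Med comes to 0.00.

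The calls on the 10 genes depended on which library entered the fit. Without DomKD replicate 1, whose enrichment was like that of Ctrl, 4 genes were called lower and 1 higher, where 31.5% of all genes were lower and 21.9% higher. Without DomKD replicate 2, all 10 were called, 3 lower (sax, Mad and Med) and 7 higher, where 18.5% of all genes were lower and 11.3% higher. Without Ctrl replicate 1 (1.56% of all genes lower and 0.0727% higher) or Ctrl replicate 2 (0.811% and 0.0182%) none of the 10 was called, with 1 at an unadjusted p under 0.05 in each fit. In these fits the lone library of a group was taken to vary like the libraries of the other group.

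DomKD replicate 1 was higher than DomKD replicate 2 at all 10 genes, as it was at 91.8% of occupied genes and at 49.4% of all tested genes. Against the Ctrl mean, 7 of the 10 genes were higher in DomKD replicate 1 and 4 were higher in DomKD replicate 2. The role groups differed in their medians per library. In DomKD replicate 1 the median log2 difference from Ctrl was 0.48 for ligands, 0.63 for extracellular modulators, -0.02 for receptors and -0.32 for Smads. In DomKD replicate 2 it was 0.12, -0.14, -0.39 and -0.43 in the same order. The receptor medians lay between genes far apart, with 0.66 for tkv and -0.71 for sax in DomKD replicate 1, and describe neither gene. With 2 to 4 genes per role the medians are descriptions and were not tested.

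These values were set beside those of genes of like density over the whole span. Among the 1712 other genes at 4 to 8 times background the median log2 difference from Ctrl was -0.18 for DomKD 1 and -0.71 for DomKD 2. The corresponding values were 0.65 and 0.09 for dpp, 0.30 and 0.14 for scw and 0.75 and 0.16 for cv-2, all above the class median in both libraries. Their fold changes exceeded those of 95.5%, 89.8% and 97.5% of the class. The genes sog, tsg and tld belong to the class at 8 times background or more, where 816 other genes had medians of 0.31 and -0.35. Here sog had 0.62 and -0.23, tsg had 0.32 and -0.20 and tld had 0.65 and -0.08, and their fold changes exceeded those of 73.3%, 54.4% and 81.2% of the class. Among 3428 other genes at 2 to 4 times background the medians were -0.30 and -0.59. In that class tkv had 0.66 and 0.07 and exceeded 95.8% of the genes, Med had -0.27 and -0.46 and exceeded 58.8%, and sax had -0.71 and -0.85 and exceeded 15.3%. Mad, at -0.37 and -0.39, exceeded 7.70% of the 10553 other genes below 2 times background, where the medians were 0.11 and 0.37. Its Ctrl libraries were at 2.15 and 2.35 times background and its DomKD libraries at 1.54 and 1.16, so that it fell in this class through DomKD. Against the medians of the class at 2 to 4 times, -0.30 and -0.59, Mad would not stand low, and its position depends on the class taken. The classes of dpp and tkv rest on spans with long parts near background. The dpp-RE span was at 12.3 to 27.3 times background and the tkv-RD span at 5.05 to 11.5, above the classes used. The positions of dpp and tkv therefore depend on the span taken. All positions are descriptions with no test.

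**Figure D3:**
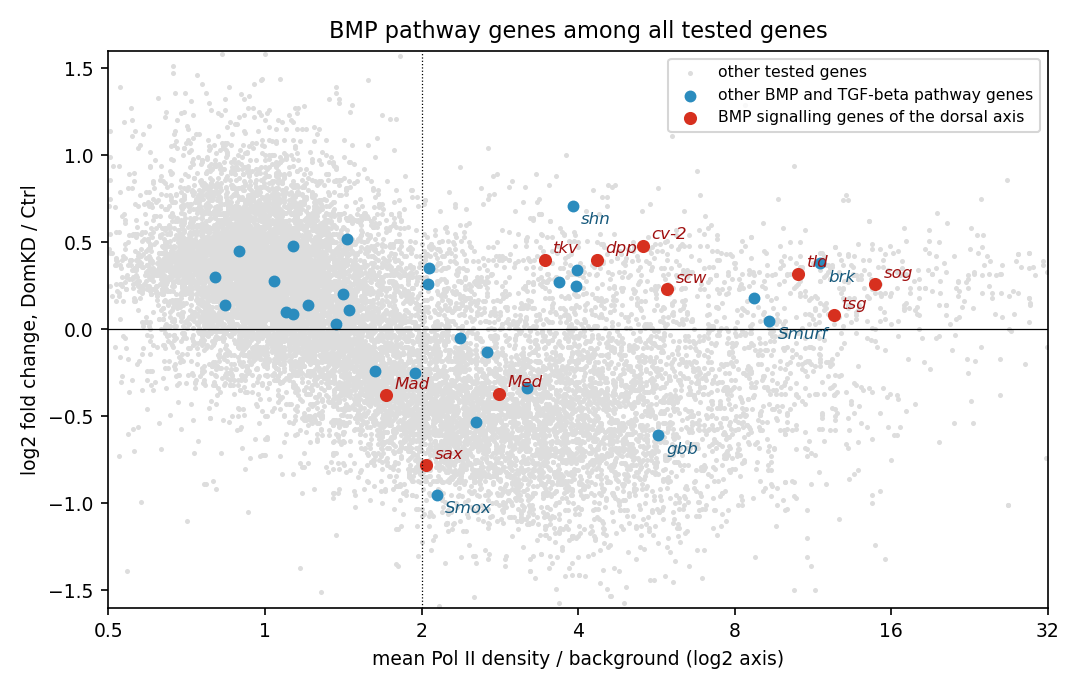
Log2 fold change against mean read density over background (log2 axis) for 16181 tested genes in grey, the 29 other BMP and TGF-beta pathway genes in blue and the 10 BMP signalling genes in red; 332 genes fall outside the drawn range. With TMM scaling over all genes sax, Mad and Med lie at -0.78 to -0.37 and the other 7 genes at 0.08 to 0.48; scw, sog and tsg turn below 0 with early zygotic scaling.

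Reads above background gave larger differences at sax, Mad and Med. The densities used here were not corrected for enrichment between libraries. Reads above background made up 53.2% and 57.4% of the total in Ctrl and 55.6% and 29.1% in DomKD. How far this enters the values, above all in DomKD replicate 2, was not tested. When the background density of each library was taken off, sax had 8.72 and 8.84 CPM per kb left in Ctrl and 2.72 and 0.811 in DomKD, a log2 difference of -2.32 between the group means. Mad had 5.36 and 5.69 in Ctrl and 2.37 and 1.11 in DomKD (log2 difference -1.67), and Med had 11.8 and 12.1 in Ctrl and 7.52 and 5.70 in DomKD (-0.85). In all 3 genes both DomKD libraries stayed below both Ctrl libraries. For the other 7 genes the log2 differences between group means were 0.33 for dpp, 0.15 for scw, 0.17 for sog, 0.00 for tsg, 0.24 for tld, 0.43 for cv-2 and 0.32 for tkv. These means average libraries that differed. In DomKD replicate 1 the differences from Ctrl were 0.59 for dpp, 0.67 for cv-2, 0.63 for tkv, 0.50 for tld and 0.47 for sog. In DomKD replicate 2 they were 0.02, 0.14, -0.08, -0.07 and -0.20 in the same order. The gene scw had 0.15 in both, and tsg had 0.15 and -0.18. In DomKD replicate 2 only 10.3% of the sax reads and 13.6% of the Mad reads were above background, so that these values rest on few reads. No test was run on them.

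Ratios of counts within a library do not depend on the scaling between libraries, but the counts include background, and enrichment differed between libraries. The ratio of tkv to sax reads was 16.9 and 17.4 in Ctrl and 44.3 and 32.6 in DomKD, and that of dpp to sax reads was 12.7 and 13.1 in Ctrl and 33.2 and 24.9 in DomKD. Both ratios were higher in each DomKD library than in each Ctrl library. The same held for dpp to Mad, with 4.61 and 4.70 in Ctrl and 9.48 and 6.52 in DomKD. The ratio of dpp to scw reads was 13.6 and 13.7 in Ctrl and 17.4 and 13.2 in DomKD. That of sog to tsg reads was 30.5 and 29.1 in Ctrl and 36.8 and 29.1 in DomKD. In both, DomKD replicate 1 was apart from the other libraries. The ratios of tkv and of cv-2 to dpp changed little. The ratio of tkv to dpp reads was 1.33, 1.32, 1.33 and 1.31 in Ctrl 1, Ctrl 2, DomKD 1 and DomKD 2, and that of cv-2 to dpp reads was 0.922, 0.929, 0.988 and 0.967. Mad to Med gave 1.86 in both Ctrl libraries and 1.73 and 1.95 in DomKD. With background taken off, Mad fell more than Med, with log2 differences of -1.67 and -0.85. The ratio of sax to Med reads was 0.674 and 0.664 in Ctrl and 0.494 and 0.510 in DomKD, so that sax was lower relative to Med in both DomKD libraries. The sog to dpp ratio was 2.71, 2.69, 2.65 and 2.15, with DomKD replicate 2 apart from the other libraries.

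Within dpp, Pol II reads lay mainly in the part downstream of the dpp-RE start. The annotated isoforms share their 3′ end and differ in their start, so that the count of a longer span minus that of the shorter span inside it gives the reads of the part between the starts. The first 21821 nt of dpp, between the starts of dpp-RA and dpp-RB, stayed at background with 1.00, 1.10, 1.09 and 0.979 times background in Ctrl 1, Ctrl 2, DomKD 1 and DomKD 2. The next 1036 nt, up to the start of dpp-RC, had 2.18, 2.27, 3.78 and 1.79 times background. The 3508 nt between the starts of dpp-RC and dpp-RE, which follow the TAGteam match shown for dpp-RC, had 5.64, 5.89, 7.35 and 3.99 times background. The 5087 nt span of dpp-RE had 17.1, 19.3, 27.3 and 12.3 times background and held 66.4%, 67.6%, 72.2% and 62.6% of the reads of the gene. This density was above that of the whole sog span in each library. The order of the parts was the same in all 4 libraries. Reads over the dpp-RE span can come from Pol II that started at any of the starts, and the counts do not separate them.

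The receptor gene tkv had the same form. The 27245 nt between the starts of tkv-RA and tkv-RC had 1.39, 1.5, 1.19 and 1.03 times background, and the 1519 nt up to tkv-RB had 1.38, 1.27, 1.23 and 1.16. Relative to each library's own background, both parts were a little lower in the DomKD libraries. In CPM, DomKD replicate 2 was above both Ctrl libraries in both parts. The tkv-RC part had 9.54 and 8.09 CPM in Ctrl and 9.23 and 11.4 CPM in DomKD. The 5258 nt between tkv-RB and tkv-RD had 1.79, 1.67, 2.26 and 1.52 times background. The 18363 nt span of tkv-RD, whose start carries the GAGAG matches shown above, had 6.80, 7.67, 11.5 and 5.05 times background and held 71.6%, 73.2%, 82.0% and 71.1% of the reads. In CPM this span had 569 and 590 in Ctrl and 1036 and 599 in DomKD, while the tkv-RA part had 173 and 172 in Ctrl and 160 and 181 in DomKD. DomKD replicate 1 was high over the tkv-RD span and low over the tkv-RA part.

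At sog, the 6894 nt between the starts of sog-RB and sog-RA were near background with 0.890, 0.955, 1.31 and 0.918 times background. The 21965 nt span of sog-RA had 15.8, 17.4, 22.6 and 9.56 times background, and the 1293 nt beyond its 3′ end had 6.05, 6.94, 10.3 and 3.46. In sax, the first 113 nt, between the starts of sax-RA and sax-RB, had 25 and 18 reads in Ctrl and 8 and 7 reads in DomKD, and the remaining 3471 nt had 551 and 372 reads in Ctrl and 258 and 253 in DomKD. Both parts of sax had a lower density over background in each DomKD library than in each Ctrl library. The fit over 33659 transcripts, of which 13.6% were called lower and 2.78% higher, gave each isoform of the 10 genes the direction of its gene. It called the 3 sax isoforms lower, with sax-RA and sax-RC at -0.79 (adjusted p = 7.07e-04) and sax-RB at -0.76 (adjusted p = 0.00107), which share nearly all of their reads. No isoform of the other 9 genes was called.

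**Figure D4:**
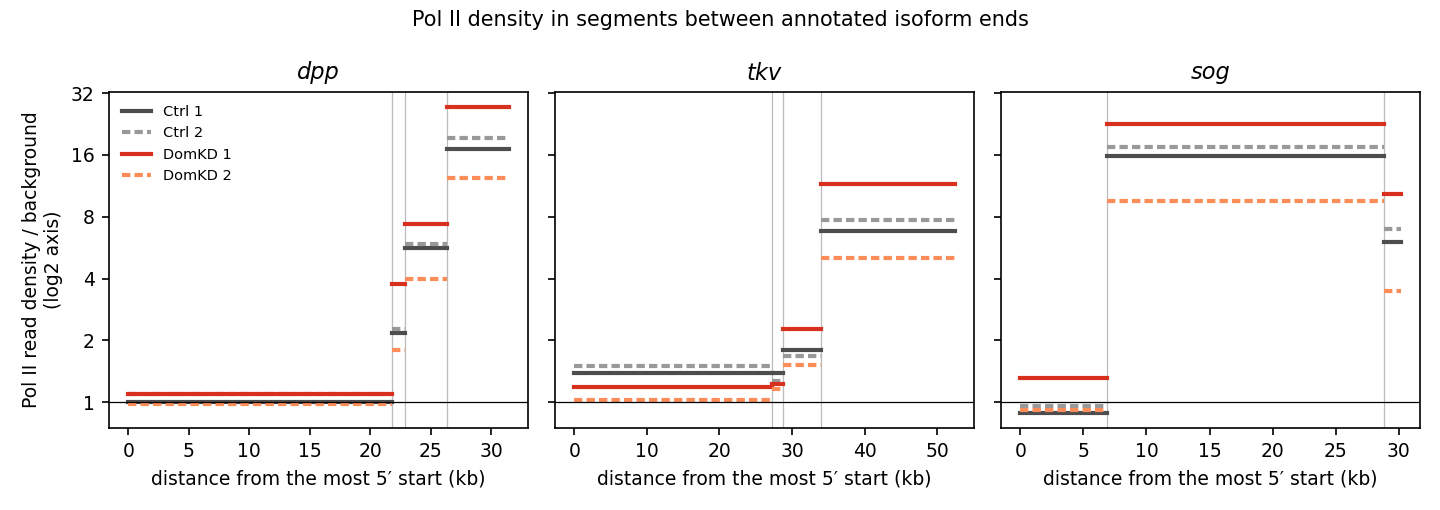
Read density over background (log2 axis) along dpp, tkv and sog, against distance from the most 5′ annotated start in kb; each horizontal line is 1 library over the part between neighbouring isoform ends. The dpp-RE, tkv-RD and sog-RA spans lie at 5.05 to 27.3 times background and the most 5′ parts at 0.890 to 1.5 times in all 4 libraries.

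Genes whose spans overlap share reads, since strand was ignored in counting, and genes within 1000 nt of the 10 were therefore read as well. The convergent gene TTLL12, whose 3′ end abuts that of sax, was also called lower, with 38.7 and 38.9 CPM in Ctrl, 22.9 and 21.2 CPM in DomKD and a fold change of -0.82 on the log2 scale (SE 0.20, adjusted p = 0.00116). The divergent gene Nop17l, which starts 99 nt from the sax-RA start, had -0.33 (SE 0.21, adjusted p = 0.251). Beside Mad, ND-B14.5B (604 nt away) was called lower at -1.08 (adjusted p = 7.32e-05) and gkt (307 nt) had -0.34 (adjusted p = 0.244). Around Med, CycG overlaps 1619 nt and had -0.25 (adjusted p = 0.425), whereas Mnat9, which overlaps 92 nt, was called at -0.93 (adjusted p = 8.60e-04) and CG1792, 928 nt away, at -0.98 (adjusted p = 7.16e-04). None of the genes beside dpp, scw, tsg, tld or tkv was called.

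All of scw lies within Lar and CG46244, whose spans were at 0.969 and 0.887 times background with log2 fold changes of 0.20 and 0.31, and scw itself was at 5.93 times background. Beside tsg, gd (298 nt away) had 0.50 (adjusted p = 0.0691). Beside tld, tok (606 nt) had 0.25 and asp (339 nt) had -0.22. Beside tkv, the 3′ end of Nin lies 344 nt upstream of the tkv-RA start, and its span was at 37.5 times background, with a log2 fold change of 0.24, and TpnC25D overlaps the last 54 nt at 4.76 times background with 0.41. The other genes inside tkv (Cyp4ac1, Cyp4ac2, Cyp4ac3, CR14033 and lncRNA:CR44744) were at 1.01 to 1.33 times background with log2 fold changes of -0.30 to 0.45. Near dpp, lncRNA:CR44912 was at 0.928 times background with -0.15.

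The choice of genes for scaling moved the 10 genes together. Library sizes alone gave log2 fold changes of -0.82 to 0.42 and 1 call, lower, against 15% of all genes lower and 0.878% higher. TMM factors from 58 early zygotic genes, a list that holds none of the 10, lowered the median of all genes by 0.23 and left dpp at 0.12, cv-2 at 0.20, tkv at 0.11 and tld at 0.02, with scw at -0.02, sog at -0.05, tsg at -0.20, sax at -1.03 and Mad and Med at -0.61. With that scaling sax alone was called (16.5% of all genes lower and 0.0545% higher), and 99.7% of all calls were lower, against 83.7% with the scaling reported above and 94.5% with library sizes alone. Scaling and testing the 5959 occupied genes on their own raised their median by 0.36 and brought the share of lower calls to 48.1%. There 8 of the 9 genes tested were called, 7 of them higher, against a background of 20% lower and 21.6% higher. The values were 0.82 for cv-2 (SE 0.13, adjusted p = 2.86e-08), 0.74 for dpp (SE 0.13, adjusted p = 4.81e-07) and tkv (SE 0.13, adjusted p = 8.88e-07), 0.65 for tld, 0.59 for scw, 0.58 for sog, 0.43 for tsg and -0.42 for sax (SE 0.14, adjusted p = 0.00997). That fit changed both the scaling and the genes fitted, and its SE values were lower (0.13 against 0.25 for dpp, cv-2 and tkv), so that the calls on the 7 genes cannot be put down to scaling alone. The gene sax entered it through its Ctrl libraries, with DomKD densities of 1.62 and 1.12 times background for sax, so that the value for sax there is no further support for its call.

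**Figure D5:**
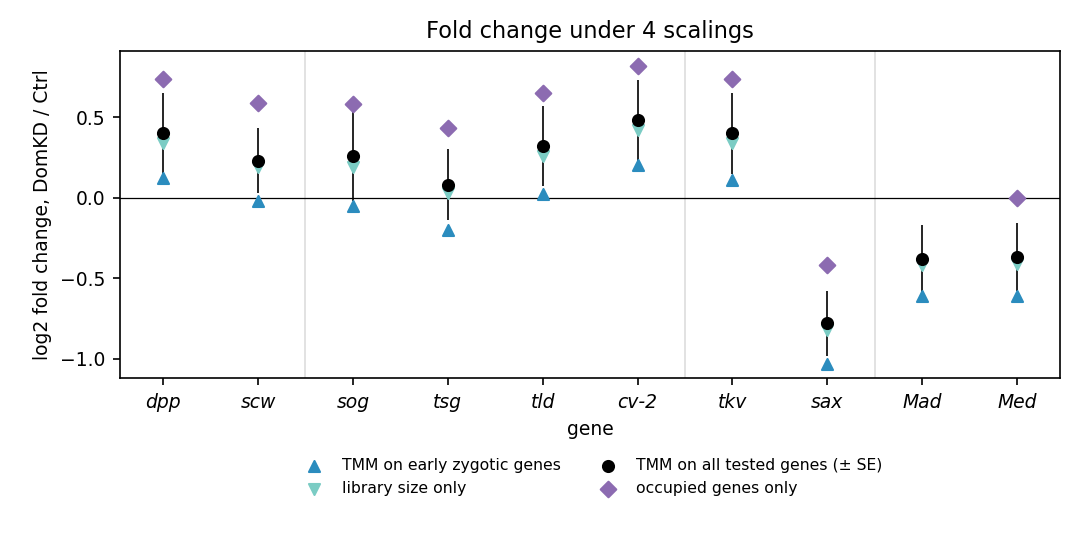
Log2 fold change (DomKD over Ctrl) of each gene under 4 scalings, with SE bars for TMM over all tested genes; Mad was not among the occupied genes and has no diamond. The values of a gene shift together by scaling, sax stays between -1.03 and -0.42, and scw, sog and tsg cross 0 with early zygotic scaling while Med reaches 0.00 with occupied genes only.

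The other genes of the BMP and TGF-beta pathways were described with a list of 29, and all 29 were tested. In this list 1 gene was lower (12.7% of all genes) and 1 was higher (2.46% of all genes), and the median log2 fold change was 0.14. Smox, which encodes the Smad of the activin branch, had 75.1 and 74.8 CPM in Ctrl and 40.9 and 36.5 CPM in DomKD, and it fell by 0.95 on the log2 scale (SE 0.21, adjusted p = 2.53e-04). Schnurri (shn), the partner of Mad and Medea in repressing brk, had 879 and 901 CPM in Ctrl and 1714 and 1193 CPM in DomKD. Its rise of 0.71 (SE 0.25, adjusted p = 0.0405) was lost with RLE factors, early zygotic scaling, the quasi-likelihood test and the replicate block. When either Ctrl library was left out, the calls on Smox and shn were lost, as that on sax was.

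Next to the Smads Mad and Med, the inhibitory Smad gene Dad was at 1.45 times background with a fold change of 0.11 on the log2 scale (SE 0.22, adjusted p = 0.738). Of the other receptor genes, the type II receptor gene wit had 0.34 (adjusted p = 0.315) and the activin type I receptor gene babo -0.53 (adjusted p = 0.0790). Of the other ligand genes, gbb, at 5.70 times background, had -0.61 (SE 0.23, adjusted p = 0.0559) and myo had -0.05. The modulator genes srw, at 8.73 times background, and tok had 0.18 and 0.25. The repressor gene brk was at 11.7 times background with 165 and 168 CPM in Ctrl and 273 and 161 CPM in DomKD, and its log2 fold change was 0.38 (SE 0.25, adjusted p = 0.271). The ubiquitin ligase gene Smurf and the receptor adaptor gene Sara had 0.05 and -0.13. Over the list 5 genes were lower and 13 higher in both DomKD libraries than in both Ctrl libraries, against 31.8% and 30.8% of all genes. Only 15 of the 29 genes were occupied, and within all occupied genes the shares were 62.1% lower and 7.64% higher. Of the 13 higher genes only daw, dlp and shn were occupied, with daw and dlp just inside at 2.07 and 2.06 times background. The other higher genes lay below 2 times background, where counts are largely background reads.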

How the data were processed

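Rpb3 ChIP-seq libraries of stage 5 embryos (2 Ctrl, 2 DomKD) were analysed, and the other 24 samples, inputs included, were not used here. The deposited values are whole, unscaled read counts for each transcript. The authors mapped trimmed reads to dm6 with snakePipes, dropped duplicates and improper pairs, and ran featureCounts over whole transcript spans without regard to strand, in which a read counts for each transcript it overlaps. The deposited length column, another unit, is the span with introns. Counts over a span mix paused and elongating Pol II and include background in proportion to length.

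Identifiers placed 34516 of 34793 transcripts in the Ensembl BDGP6 annotation (dm6 coordinates), and each gene was represented by its transcript of highest mean count. The gene totals were 12022604 and 8326382 in Ctrl and 10414859 and 9244925 in DomKD, and their number limits the precision. Genes with a span of at least 125 nt and more than 10 reads in all were tested in edgeR 4.0.16 (R 4.3.3) by its likelihood ratio test, as in the study's methods, with no replicate block, TMM factors (1.02, 1.01, 0.895 and 1.09) and Benjamini-Hochberg adjustment over all genes at 0.05. The study scaled on its own Zelda targets, which were not used here. CPM values are counts scaled to the TMM-adjusted library total. Log2 fold changes compare DomKD with Ctrl, and their standard errors (SE) come from the model. Density is CPM without TMM factors per kb, and background is the mode of log2 density (kernel bandwidth 0.1) over genes above 2000 nt. In counts simulated for 16501 genes, with 200 genes changed 2-fold, 82.0% were recovered with 8 false calls. The changed genes were drawn from those with higher counts, and no difference in enrichment between libraries was simulated. Recovery of smaller changes was not simulated. DESeq2 1.42.0, the edgeR quasi-likelihood test and other scalings, filters, transcripts and sample sets served as alternatives.

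The genes and lists were chosen with earlier results of these data known. All 10 genes are named, with tested genes within 1000 nt, the called genes of the other pathway list and its 2 densest genes per role, and dom. Replicates are described as biological in the methods, but the labels name no shared batch or animal. Promoters were read from the Release 6 genome.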

Additional observations from a re-analysis of the deposited data

How the results depend on the processing

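Of the 10 genes, 1 was called under every scaling, filter, tool and transcript choice tried with all 4 libraries except one: with occupied genes scaled and tested on their own, 8 were called. Leaving out 1 library gave 0 to 10 calls (0 without either Ctrl library, 5 without DomKD replicate 1 and 10 without DomKD replicate 2), and a median log2 fold change of -0.15 to 0.46. Signs turned at scw (-0.02), sog (-0.05) and tsg (-0.20) with TMM on early zygotic genes, at sog (-0.24), tld (-0.09) and tsg (-0.20) without DomKD replicate 1, and at Med (0.00) with occupied genes only. The median of the 10 genes was -0.04 with early zygotic scaling and 0.59 with occupied genes only. Without DomKD replicate 2, sog, tld and tsg came to 0.61, 0.63 and 0.31. With a bandwidth of 0.2 for the background, 8 genes were occupied in place of 9. Among the 29 other pathway genes the count of 2 calls became 4 with library sizes alone, 11 with occupied genes only, 1 with the quasi-likelihood test and 1 with RLE factors, and 0 to 17 when 1 library was left out; their median was 0.54 with occupied genes only, -0.08 with early zygotic scaling and 0.05 to 0.18 when 1 library was left out. Over all genes 2498 calls became 1155 with DESeq2 and 137 to 8825 when 1 library was left out. A fit that leaves out a library takes the lone sample to vary like the other group. The causes of these shifts were not tested.

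Same-numbered libraries did not deviate together (correlation of -0.135 across genes), and the labels name no shared batch, so the numbers were not taken as pairs. With the replicate block, 1 of the 10 genes (sax, adjusted p = 0.0122), 1 of the other pathway genes and 1858 of all genes were called, and the median of the 10 was 0.21. A crossed replicate block, added after the data were seen, gave 1, 5 and 3413 calls.

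With 2 libraries per group and unequal enrichment, small changes at the BMP genes could not be resolved. No input, spike-in or H2A.Z level was used, so that a change common to all genes cannot be seen. Spans shared with neighbours and between isoforms could not be separated.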
